A study of Mus musculus with 2 samples.

Results

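Collagens are triple-helical proteins of the extracellular matrix, and the genes described here are the mouse collagen chain genes on an Affymetrix expression array. A probe set, the group of short probes that reports 1 transcript, was taken as a member when the platform annotation named exactly 1 gene for it and that gene's symbol was Col followed by a number, the letter a and a number. The choice leaves out Col17a1. It gave 81 probe sets of 41 genes, out of 45037 non-control probe sets and 18193 genes. The members were sorted by the tissue in which their collagens are best known: 6 fibrillar genes of bone and skin, 7 of cartilage, 8 of basement membranes, 5 beaded filament genes and 3 FACIT genes (fibril-associated collagens with interrupted triple helices), with 12 genes in no named class.

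The study set 1 embryo labelled Sox11(-/-) against 1 embryo labelled Sox11(+/+), both littermates taken at E17.5 from a cross of Sox11(+/-) parents. Both were of mixed C57BL/6 and 129 background. The Sox11 protein is a SoxC transcription factor, and the question is what differs in the cerebral cortex without it. With 1 embryo and 1 array for each genotype, a difference here is between 2 libraries and has no replicate check, SD or test. The allele is not described further in the labels beyond its genotype.

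Fibrillar collagens form the cross-banded fibres of bone, skin and tendon, and a separate fibrillar set builds cartilage. Basement membrane collagens form sheets under epithelia and around vessels, type VI makes beaded filaments around cells, and FACIT collagens sit on the surface of fibrils. In the brain, collagen genes are known mainly from the meninges and the vessels, and neurons and glia make little of the fibrillar types.

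The 6 Sox11 probe sets kept 16.6% to 48.5% of the wild-type signal in the Sox11-null library. The sources used here do not say which of them lie in the deleted part. The 3' to 5' signal ratio of beta-actin, which rises as RNA breaks down, was 1.16 in the Sox11-null and 1.78 in the wild-type library. The same ratio of Gapdh was closer, 0.82 in the Sox11-null and 0.92 in the wild-type library. Markers of tissues outside the cortex gave signals in both libraries. In both, 5 of 6 bone, 9 of 12 cartilage and 9 of 9 skeletal muscle markers reached the array median. So did 7 of 8 epidermis markers and 6 of 7 cortical neuron markers. Of all genes 68.1% reached it on at least 1 array, a looser rule, so these counts alone do not show that a tissue was present. Some of the markers were bright, such as Acta1 of muscle (23519 in Sox11 null, 23182 in wild type). The embryos also differed in sex-linked genes, with Xist at 155 in the Sox11-null and 17505 in the wild-type library, and the Y-linked Uty at 617 in the Sox11-null and 21.8 in the wild-type library. Signals are the deposited intensities, and a gene is represented by its brightest probe set. Log2 differences are Sox11 null minus wild type, centred so that the median gene is at 0. In bulk tissue, fewer cells of a type and less RNA per cell cannot be told apart.

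None of the measured collagen genes differed by 1.5-fold between the libraries. To be counted as measured, a gene had to reach the array median (177.4 in Sox11 null, 177.5 in wild type) with its signal on at least 1 array, as 35 of the 41 genes (85.4%) and 12390 of all 18193 genes (68.1%) did. Of the measured genes on the whole array, 6.3% lay beyond 1.5-fold, 3.24% lower and 3.07% higher. The collagen count of 0 has to be read against level, since among 3 equal groups of measured genes by level, 20 of the 35 were in the brightest, where 2.18% of genes lay beyond 1.5-fold, 9 in the middle one (3.83%) and 6 in the dimmest (12.9%). The median absolute log2 difference was 0.16 over the 35 collagen genes and 0.17 over all measured genes. The median signed difference was -0.0052, with 19 genes below 0 and 16 above, against 0 over all measured genes. With quantile normalization or the loess trend removed, 15 were below 0 and 20 above.

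**Figure D1:**
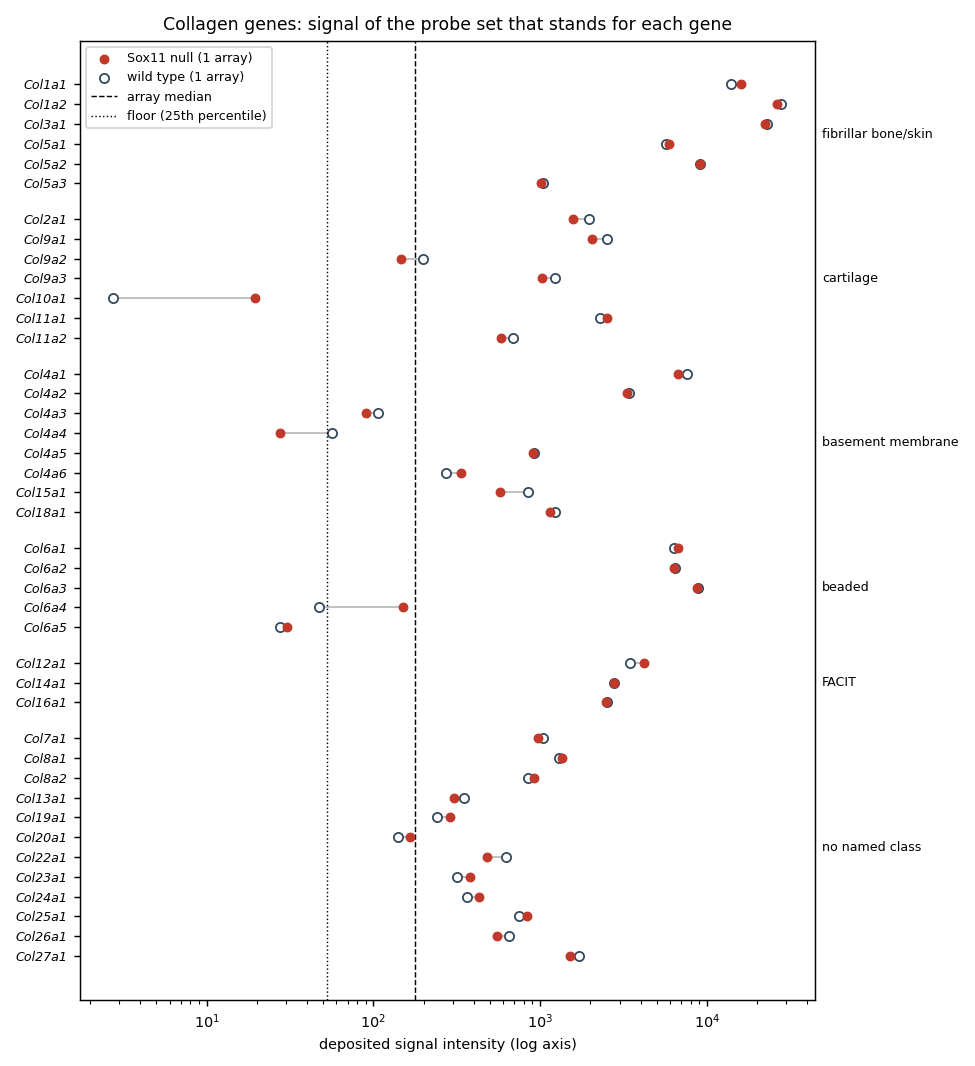
Deposited signal intensity (log axis) of the probe set that stands for each of the 41 collagen genes, in the Sox11-null (filled) and the wild-type library (open), 1 array each, with the array median and the floor at the 25th percentile. The 6 genes that did not reach the median on either array are Col10a1, Col4a3, Col4a4, Col6a4, Col6a5 and Col20a1.

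The fibrillar genes of bone and skin were nearly equal between the libraries. Col1a1, one of the chains of type I collagen, the main protein of bone, skin and tendon, had a signal of 16073 in the Sox11-null and 14025 in the wild-type library, a log2 difference of 0.22. Its partner chain gene Col1a2 had 26213 in Sox11 null and 28003 in wild type (-0.075). The signs depended on the probe set and the scaling, since a second Col1a1 probe set gave -0.14, another Col1a2 probe set gave 0.23, and Col1a2 was at 0.11 under quantile normalization and at 0.057 after loess.

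Col3a1, the chain of type III collagen of skin and vessel walls, had 22290 in Sox11 null and 23054 in wild type (-0.029). Its other probe set gave 0.031, and Col3a1 was at 0.16 under quantile normalization and at 0.095 after loess. Type V collagen starts and limits the growth of type I fibrils. Col5a1 had 5919 in Sox11 null and 5681 in wild type (0.079). Col5a2 had 9149 in Sox11 null and 9033 in wild type (0.038). Col5a3, a rarer chain, had 1007 in Sox11 null and 1044 in wild type (-0.033). Of the 6 genes 3 were above 0 and 3 below, and the class median was 0.0048. This split depended on the scaling. Under quantile normalization 5 were above 0 and 1 below (median 0.14), and after loess the counts were the same (median 0.11). All 13 measured probe sets of the class lay within 1.5-fold, from -0.14 to 0.36.

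Cartilage was the class whose median lay farthest from 0. Of its 6 measured genes 5 were lower in the Sox11-null library, all by less than 1.5-fold. Col2a1, the main fibril chain of cartilage, had 1573 in Sox11 null and 1970 in wild type (-0.30). Type IX collagen coats type II fibrils, and its 3 chain genes were all lower with the probe sets used: Col9a1 at 2038 in Sox11 null and 2531 in wild type (-0.29), Col9a2 at 145.6 in Sox11 null and 198.5 in wild type (-0.43), and Col9a3 at 1021 in Sox11 null and 1221 in wild type (-0.24). Col9a2 was below the array median in Sox11 null, and its difference was -0.14 when values were floored at that median. With the filter at the 75th percentile Col9a2 was not measured. Type XI collagen forms the core of the fibrils, and its genes did not share a direction. Col11a2 had 585 in Sox11 null and 690 in wild type (-0.22), while Col11a1, which is also made outside cartilage, had 2521 in Sox11 null and 2286 in wild type (0.16).

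The class median was -0.27 over 6 genes, and it ran from -0.30 to -0.23 over 10 alternative settings. The central 95% of all measured genes ran from -0.94 to 0.82 in the dimmest of the 3 groups by level. It ran from -0.49 to 0.57 in the middle one and from -0.46 to 0.45 in the brightest. Each measured cartilage collagen gene alone thus lay inside the spread of other genes. Other probe sets of the same genes did not all follow. A second Col9a1 probe set gave 479 in Sox11 null and 405 in wild type (0.26), which is the opposite direction. A second Col9a3 probe set gave 258 in Sox11 null and 608 in wild type, 2.32-fold lower (-1.22). With the mean over measured probe sets, a setting chosen after the data were seen, Col9a3 was at -0.76 and was then the only collagen gene beyond 1.5-fold. Col10a1, the collagen of hypertrophic chondrocytes, was below the floor on both arrays (19.5 in Sox11 null and 2.76 in wild type), so no fold is given.

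Most cartilage markers outside the collagen family were also lower in the Sox11-null library. Of 11 measured markers 9 were below 0, with a median of -0.20 (-0.37 to -0.18 over the alternatives), and the summed signal of all 12 was 3540 in Sox11 null and 4102 in wild type (86.3%). Matn1, a matrilin of the cartilage matrix, was 1.87-fold lower (236 in Sox11 null, 447 in wild type), and Ucma, a protein of the growth plate, was 1.56-fold lower (129 in Sox11 null, 204 in wild type). Ucma lay within 1.5-fold with the loess trend removed (-0.53) and when values were floored at the array median (-0.18). It was not measured when all of its probe sets were averaged (-0.33) or when probe sets of the _s_at and _x_at types, which can match several transcripts, were left out (0.043, the opposite sign). Sox9, the transcription factor that drives Col2a1, lay on the other side (445 in Sox11 null, 330 in wild type, 0.45, and 0.01 by its other measured probe set). None of the 12 was at the floor on both arrays. The part of a differing amount of cartilage in the tissue taken was not tested.

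**Figure D2:**
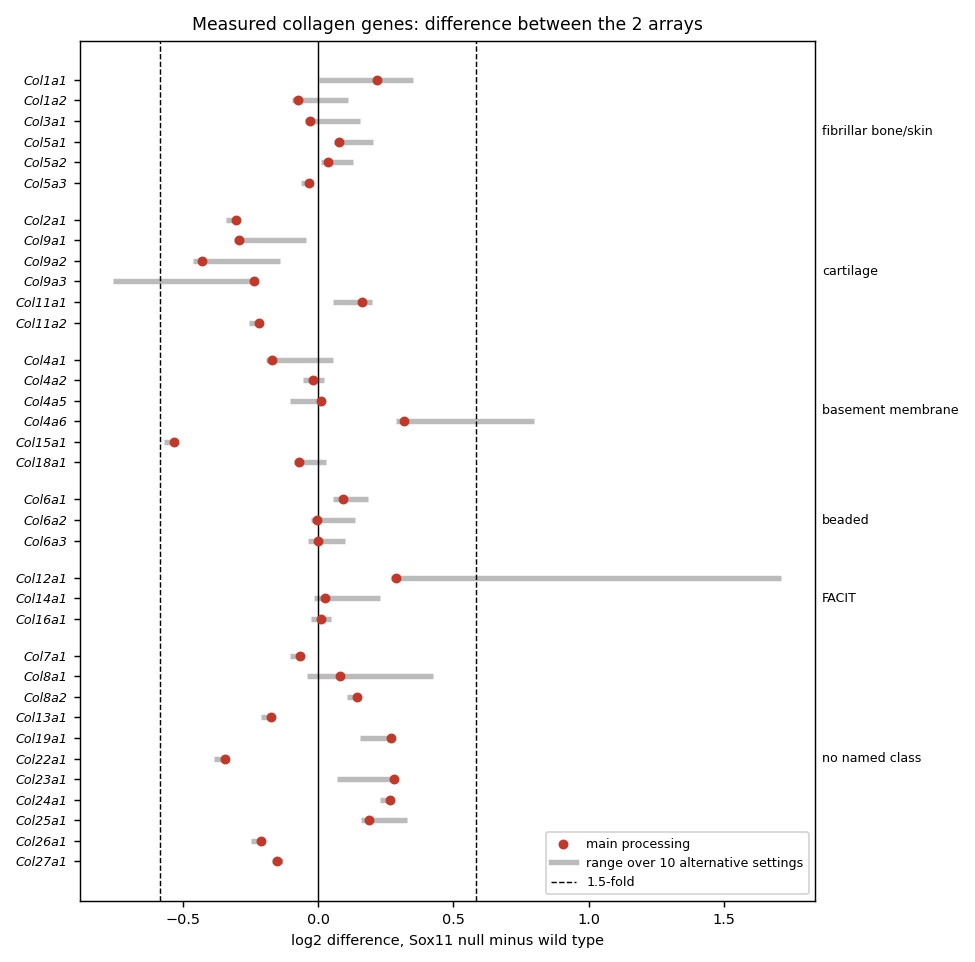
Log2 difference, Sox11 null minus wild type, of the 35 measured collagen genes by class (points), with the range over 10 alternative settings (grey bars) and 1.5-fold marked by dashed lines. All points lie within 1.5-fold, the cartilage genes other than Col11a1 lie below 0, and the bars of Col9a3, Col4a6 and Col12a1 cross a dashed line.

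Basement membrane genes lay close to 0 with 1 lower and 1 higher exception. Col15a1, a chain of the zone below basement membranes of vessels and muscle, had 575 in Sox11 null and 844 in wild type. This was the largest negative difference among the measured collagen genes by the brightest probe set (-0.53, 1.45-fold lower). It has 1 probe set, and its difference ran from -0.57 to -0.53 over the alternatives. Its relative Col18a1, whose end fragment is endostatin, had 1148 in Sox11 null and 1222 in wild type (-0.070), and with a second measured probe set 768 in Sox11 null and 685 in wild type (0.18, the opposite direction).

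Type IV collagen is the sheet-forming network of every basement membrane, and its ubiquitous chains are products of Col4a1 and Col4a2. Col4a1 had 6691 in Sox11 null and 7638 in wild type (-0.17), but 2083 in Sox11 null and 1672 in wild type with its other probe set (0.34). Col4a2 had 3339 in Sox11 null and 3429 in wild type (-0.018). The pair thus showed no common shift beyond the disagreement of the Col4a1 probe sets.

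Col4a5 and Col4a6 are an X-linked pair. Col4a5 had 908 in Sox11 null and 914 in wild type (0.011), with -0.15 by its other measured probe set. Col4a6 had 336 in Sox11 null and 274 in wild type (0.32), with Col12a1 close to it (0.29) and above it under quantile normalization (0.34 against 0.30). A dimmer Col4a6 probe set, below the median on both arrays, gave 148 in Sox11 null and 58.6 in wild type, and with it averaged in Col4a6 was at 0.80. Sex-linked genes differ between these embryos, and their part in the X-linked pair was not tested. Col4a3 and Col4a4, known from the kidney filter and the inner ear, did not reach the median. Col4a3 had 90.9 in Sox11 null and 107.3 in wild type, and Col4a4 had 27.6 in Sox11 null and 56.5 in wild type. The class median was -0.044 over 6 genes, 4 of them below 0.

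The 3 measured genes of the beaded filament class lay between -0.0052 and 0.092. Col6a1, Col6a2 and Col6a3 encode the chains that join into type VI collagen, which is abundant around muscle fibres and in skin. Col6a1 had 6711 in Sox11 null and 6385 in wild type (0.092). Col6a2 had 6319 in Sox11 null and 6429 in wild type (-0.0052). Col6a3 had 8771 in Sox11 null and 8904 in wild type (-0.0018). All 3 chains were thus nearly equal by the brightest probe set, while another Col6a2 probe set gave 0.34. Col6a4, whose chain can stand in for that of Col6a3 in the mouse, was dim in both libraries but higher in the Sox11-null one with both of its probe sets. They gave 151.5 in Sox11 null and 47.3 in wild type, at least 2.90-fold higher, and 106.6 in Sox11 null and 35.2 in wild type, at least 2.04-fold higher, as bounds because the wild-type signal was under the floor of 52.9. Neither reached the array median, so Col6a4 is not among the measured genes. Col6a5 was below the floor in both.

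All 3 FACIT genes were on the higher side of 0, 2 of them so close to it that Col16a1 was at -0.010 without centring and both were below 0 with the mean over all of a gene's probe sets. Col12a1, of tendon and dense connective tissue, had 4182 in Sox11 null and 3471 in wild type (0.29), with 0.55 by a second measured probe set. Col14a1, of similar tissues, had 2791 in Sox11 null and 2779 in wild type (0.026), with 0.49 by a second. Col16a1 had 2487 in Sox11 null and 2504 in wild type (0.0098 after centring). All 5 measured probe sets of the class were above 0, with a gene median of 0.026 that was -0.014 when all probe sets of a gene were averaged. The other probe sets of Col12a1 were below the floor on both arrays, and averaging them in gave 1.71, a value carried by those low signals (22.8 and 41.8 in Sox11 null, 5.38 and 2.56 in wild type).

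The 11 measured genes outside the named classes were also within 1.5-fold. Col22a1, of the junction of muscle and tendon, had 483 in Sox11 null and 622 in wild type (-0.35), with -0.59 and 0.035 by its other probe sets. Col26a1 was also lower (551 in Sox11 null, 646 in wild type, -0.21), as was Col13a1, a transmembrane collagen of the neuromuscular junction (307 in Sox11 null, 350 in wild type, -0.17). So was Col27a1, a fibrillar collagen of cartilage (1516 in Sox11 null, 1707 in wild type, -0.15). Col7a1, the anchoring fibril chain under the epidermis, had 974 in Sox11 null and 1035 in wild type (-0.067).

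Epidermis markers differed far more than Col7a1. Of 8 markers 5 were beyond 1.5-fold lower and none higher, and their summed signal was 21355 in Sox11 null and 39183 in wild type (54.5%). Krt10, a keratin of the layers above the basal one, was 3.11-fold lower (3229 in Sox11 null, 10189 in wild type), and Ivl, a cornified envelope protein of the same layers, 2.76-fold lower (105.4 in Sox11 null, 295 in wild type). The Ivl difference was -0.72 when values were floored at the array median, against -1.47, and Ivl was not measured when all of its probe sets were averaged (-0.028). Markers of the basal layer, which rests on the anchoring fibrils, were nearer to equal, with Krt5 at 0.11 and Krt14 at -0.39.

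On the higher side were Col23a1, a transmembrane collagen (379 in Sox11 null and 316 in wild type, 0.28), Col19a1 (287 in Sox11 null, 242 in wild type, 0.27) and Col24a1, a fibrillar collagen of bone (430 in Sox11 null, 363 in wild type, 0.27). A second measured Col23a1 probe set gave -0.084, and the mean over measured probe sets 0.069. Col25a1, a transmembrane collagen made by neurons, had 835 in Sox11 null and 743 in wild type (0.19). Col8a1 and Col8a2 encode type VIII collagen of endothelium and cornea. Col8a1 had 1350 in Sox11 null and 1293 in wild type (0.083), and Col8a2 had 925 in Sox11 null and 849 in wild type (0.14). For Col8a1 a second measured probe set gave -0.11, and the mean over measured probe sets -0.042. Col20a1 did not reach the median (165.7 in Sox11 null, 141.5 in wild type).

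Probe sets of 1 collagen gene often disagreed by as much as the libraries did. Of the 81 probe sets 57 were measured, and 55 of these lay within 1.5-fold, the 2 exceptions being the lower Col9a3 and Col22a1 probe sets. In 19 genes with several measured probe sets, 8 had the same sign throughout. The pooled SD of the log2 difference between probe sets of a gene was 0.26 over these 19 genes and 0.39 over 5155 genes of the array. This SD measures probes on the same 2 RNA samples and says nothing of the spread between embryos. In 12 of the 19 genes (63.2%) the dimmer probe sets had a higher difference than the brightest one, as in 62.3% of the 5155 genes. The lower 3' to 5' actin ratio of the Sox11-null library stands beside this, with the Gapdh ratios closer (0.82 in Sox11 null, 0.92 in wild type). The part of RNA quality was not tested.

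**Figure D3:**
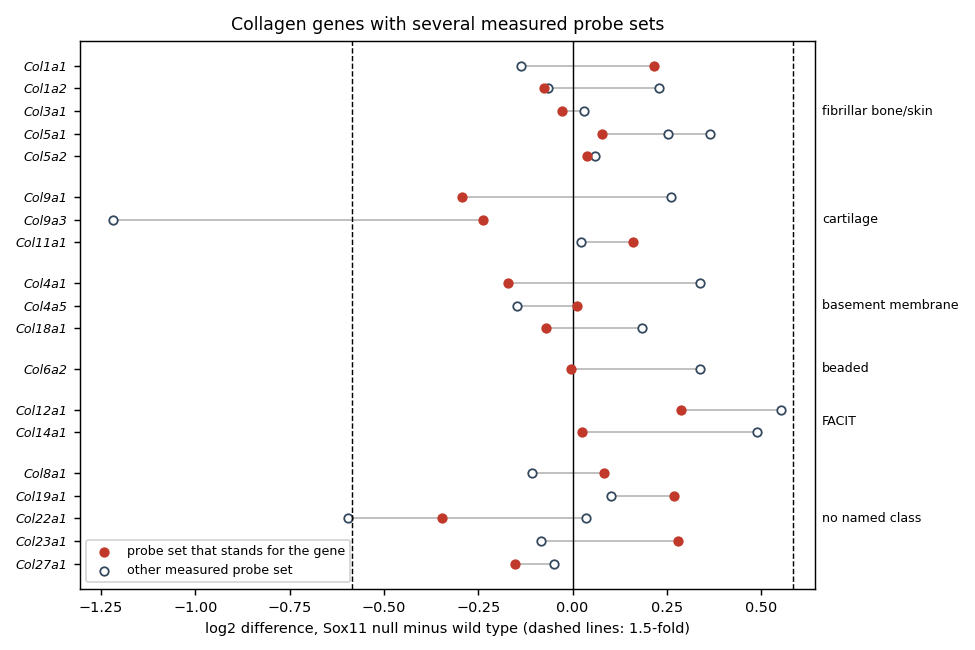
Log2 difference, Sox11 null minus wild type, of each measured probe set of the 19 collagen genes that have several, with the one that stands for the gene filled and the others open. In 8 of the 19 genes all points lie on the same side of 0, and a Col9a3 probe set at -1.22 lies farthest out.

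Genes that make, cut, bind or break down collagen were taken from 6 lists, whose counts stand beside the 6.3% of all measured genes beyond 1.5-fold. In hydroxylases, glycosyltransferases and chaperones of procollagen, 16 of 19 measured genes were above 0, with 1 beyond 1.5-fold and a median of 0.12 (0.077 to 0.12 over the alternatives), against 0 over all genes. The exception was P4ha3, a subunit of prolyl hydroxylase, at 217 in Sox11 null and 130 in wild type (1.69-fold higher), which lay within 1.5-fold when values were floored at the array median. Among other measured probe sets, 1 of P4ha1 gave 1.59 and 1 of Colgalt1 gave 1.06, while P3h1 gave -0.31 and Ppib -0.21. Serpinh1, the collagen chaperone Hsp47, had 9397 in Sox11 null and 6969 in wild type (0.45, and 0.41 by another probe set). Serpinh1 was named after its value was seen and lay under 1.5-fold. At 0.451 it was just inside the central range given above for the brightest genes (-0.459 to 0.454). The fibrillar genes of bone and skin ran from -0.075 to 0.22 by the brightest probe set. They ran from -0.058 to 0.35 under quantile normalization, and their measured probe sets from -0.14 to 0.36. Whether Serpinh1 differed from the fibrillar chains it folds was not tested.

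Of procollagen proteinases and cross-linking enzymes all 8 measured genes were within 1.5-fold, with Pcolce, an enhancer of procollagen cleavage, at 8155 in Sox11 null and 8173 in wild type (0.017) and the cross-linking oxidase Lox at 5354 in Sox11 null and 4828 in wild type (0.17). The other measured Lox probe set gave 0.85, beyond 1.5-fold higher. Their median was -0.053, but 0.21 with all probe sets averaged. By the brightest probe sets all 7 collagen-degrading enzymes were within 1.5-fold too, with Ctsk, the osteoclast protease, at 4326 in Sox11 null and 4664 in wild type (-0.089) and the gelatinase Mmp2 at 3089 in Sox11 null and 3044 in wild type (0.041). Other measured probe sets gave 0.94 and 0.57 for Mmp14, 0.69 for Mmp16, -0.028 for Mmp2 and -0.044 for Mmp9. Among 7 collagen receptors, Itgb1, the shared beta chain of the collagen-binding integrins, had 3522 in Sox11 null and 2350 in wild type, 1.52-fold higher, with 0.55 and 0.51 by its other measured probe sets. Without centring Itgb1 was at 0.58, just under 1.5-fold, and with the mean over all of its probe sets, dim ones included, at 0.15.

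Basement membrane partners had a median of -0.055 over 15 genes (-0.075 to 0.043 over the alternatives), 8 below 0 and 7 above. Other measured probe sets gave 1.59 for Nid1 and 0.84 and 0.87 for Lamb1, but -0.37 for Hspg2 and -0.018 for Sparc. Lama5, a laminin chain, was 1.53-fold higher (639 in Sox11 null, 424 in wild type), but within 1.5-fold with quantile normalization or the loess trend removed. With dim probe sets averaged in, Lama5 was not measured and stood at -0.47, the opposite direction. The other measured Lama5 probe set gave 0.98, and the mean over measured probe sets 0.76. All 13 fibril-binding proteoglycans and glycoproteins were within 1.5-fold, with a median of -0.025. Postn, which links collagen to other matrix proteins, had 11807 in Sox11 null and 12528 in wild type (-0.066), and Dcn, which coats fibrils, had 10395 in Sox11 null and 10015 in wild type (0.074).

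**Figure D4:**
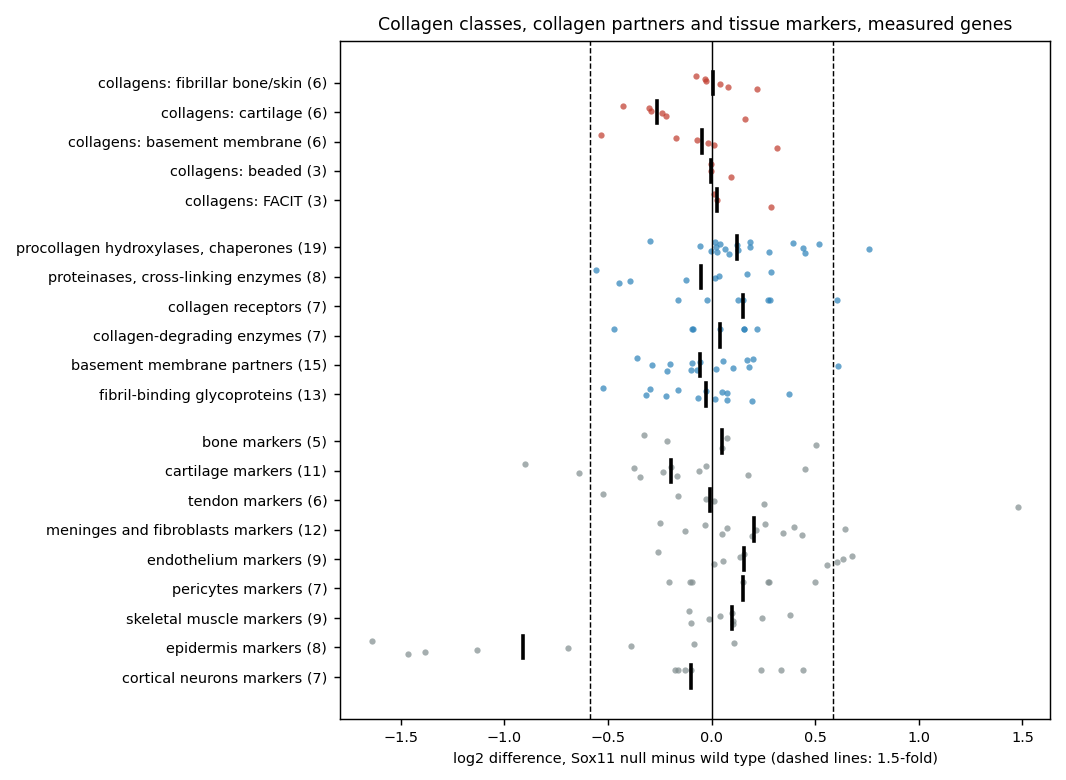
Log2 difference, Sox11 null minus wild type, of the measured genes of the 5 named collagen classes, of collagen partners and of tissue markers (points, with the number of genes in brackets), with the median as a black bar and 1.5-fold as dashed lines. The cartilage collagens and the cartilage markers have medians of -0.27 and -0.20, and the epidermis markers lie lowest at -0.91.

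Markers of the other tissues that make collagen were mixed. The 5 measured bone markers had a median of 0.050, with Ibsp, a bone sialoprotein, at 7860 in Sox11 null and 7576 in wild type (0.65 by its other measured probe set) and Dmp1, an osteocyte protein, at 3998 in Sox11 null and 2857 in wild type (0.50). Of the 5, 3 were above 0 and 2 below, Sp7 at -0.33 and Alpl at -0.22. The summed signal with the sixth marker was 13422 in Sox11 null and 12163 in wild type (110.3%), with the largest difference from Dmp1. Bglap, Runx2 and Spp1 were listed too but not found among the array's genes here. Meningeal and fibroblast markers had a median of 0.20, 9 of 12 above 0, and a summed signal of 31843 in Sox11 null and 29753 in wild type (107.0%). The transcription factor Foxc2 was 1.56-fold higher (320 in Sox11 null, 208 in wild type). The 3 below 0 were Aldh1a2 (-0.25), Prrx1 (-0.13) and Crabp2 (-0.031). Other measured Prrx1 probe sets gave 0.92, 0.27 and 0.031.

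Endothelial markers had a median of 0.16, 8 of 9 above 0 and 3 beyond 1.5-fold higher, among them the receptor Tie1 (290 in Sox11 null, 184 in wild type) and the cadherin Cdh5 (566 in Sox11 null, 370 in wild type). The third was the adhesion molecule Pecam1 at 0.60, which was under 1.5-fold with no centring, quantile normalization, the loess trend removed and both probe-set means (0.57 to 0.58). Cdh5 was at 0.34 when all of its probe sets were averaged, and the count was then 1, as it was with the filter at the 75th percentile. The 1 marker below 0 was Cldn5 (1274 in Sox11 null, 1547 in wild type, -0.26). Other measured Flt1 probe sets gave -0.38 and 0.35. The summed endothelial signal in Sox11 null was 113.0% of wild type. Of collagen genes that vessels make, Col4a1 and Col18a1 had probe sets on both sides of 0, and Col4a2 was at -0.018, but at 0.021 under quantile normalization and at 0.013 after loess. Col15a1, also of vessels, was at -0.53 with its 1 probe set. Col3a1, Col8a1 and Col8a2, tied to vessel walls or endothelium above, were at -0.029, 0.083 and 0.14. Pericyte markers had a median of 0.15, and 4 of 7 were above 0. The 3 below were Pdgfrb (-0.093), Cspg4 (-0.21) and Notch3 (-0.10). All were within 1.5-fold with the brightest probe sets (Rgs5 at 0.27, Abcc9 at 0.15, summed signal 105.9%). Other measured probe sets gave 0.18, 0.73 and 0.89 for Rgs5 and 0.98 and 0.21 for Abcc9. They gave 0.098 for Pdgfrb, 0.48 for Cspg4 and -0.017 for Notch3. Tendon markers had a median of -0.0071 with Scx, a tendon transcription factor, 2.79-fold higher (290 in Sox11 null, 105.4 in wild type). Scx lay at 0.73 when values were floored at the array median, and without probe sets of the _s_at and _x_at types it was not measured. The summed tendon signal was 97.4%. Skeletal muscle markers were within 1.5-fold (Acta1 at 0.041, Tnnc2 at -0.014, summed signal 98.5%), and so were cortical neuron markers by the brightest probe sets (Tubb3 at 0.24, Neurod6 at -0.13, summed signal 101.0%). Other measured probe sets gave -0.85 for Neurod2 and 0.59, 0.11 and -0.0040 for Bcl11b. The part of these tissues in each collagen signal was not tested.

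Several collagen genes lie next to each other in the mouse genome, and their differences are given here side by side. Between RefSeq protein-coding genes of the GRCm38.p6 assembly, Col3a1 and Col5a2 are adjacent (-0.029 and 0.038), as are Col6a2 and Col6a1 (-0.0052 and 0.092), Col4a6 and Col4a5 (0.32 and 0.011), Col4a1 and Col4a2 (-0.17 and -0.018), and Col9a1 and Col19a1 (-0.29 and 0.27). Of these 5 measured pairs 2 had the same sign, both of type IV collagen. The other adjacent pairs, Col4a4 with Col4a3 and Col6a5 with Col6a4, hold genes that were not measured.

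Promoter windows of RefSeq in the GRCm38.p6 build, 250 bases before to 50 after the annotated start, were found for 32 of the 41 genes (35 windows). Windows of 6 genes are shown: Col9a2, Col11a2 and Col15a1 because they had lower signals and 1 probe set each, Col4a1 and Col4a2 because they lie head to head and share 78 bases, and Col3a1 because it was near equal and the only collagen window with both Sox-type letter runs. Each is written 5′ to 3′ on the gene's strand, with capitals for the searched motifs.
Col9a2, chr4:121039316-121039615, + strand: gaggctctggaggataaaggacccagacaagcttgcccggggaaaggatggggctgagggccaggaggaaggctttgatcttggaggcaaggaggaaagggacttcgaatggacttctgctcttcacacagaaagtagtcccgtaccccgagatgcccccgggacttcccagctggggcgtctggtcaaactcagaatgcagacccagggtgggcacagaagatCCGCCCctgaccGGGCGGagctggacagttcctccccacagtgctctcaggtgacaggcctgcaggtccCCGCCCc
Col11a2, chr17:34038888-34039187, + strand: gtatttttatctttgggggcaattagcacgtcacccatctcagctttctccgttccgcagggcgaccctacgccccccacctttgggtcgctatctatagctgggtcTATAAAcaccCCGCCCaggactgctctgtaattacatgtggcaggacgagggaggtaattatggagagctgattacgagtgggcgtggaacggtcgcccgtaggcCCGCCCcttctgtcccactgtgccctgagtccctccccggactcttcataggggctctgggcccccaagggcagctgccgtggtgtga
Col15a1, chr4:47207762-47208061, + strand: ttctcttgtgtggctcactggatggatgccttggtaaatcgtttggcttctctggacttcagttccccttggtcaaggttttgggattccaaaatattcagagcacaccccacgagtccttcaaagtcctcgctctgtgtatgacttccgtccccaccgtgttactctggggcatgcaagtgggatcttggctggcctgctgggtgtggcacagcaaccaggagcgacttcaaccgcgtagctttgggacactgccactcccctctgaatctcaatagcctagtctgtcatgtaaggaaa
Col4a1, chr8:11312777-11313076, - strand: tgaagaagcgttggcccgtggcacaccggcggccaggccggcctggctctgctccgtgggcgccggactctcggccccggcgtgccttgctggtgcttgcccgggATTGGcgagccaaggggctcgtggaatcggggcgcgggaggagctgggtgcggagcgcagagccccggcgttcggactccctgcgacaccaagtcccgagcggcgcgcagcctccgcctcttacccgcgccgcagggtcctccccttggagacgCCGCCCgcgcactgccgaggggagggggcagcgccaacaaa
Col4a2, chr8:11312555-11312854, + strand: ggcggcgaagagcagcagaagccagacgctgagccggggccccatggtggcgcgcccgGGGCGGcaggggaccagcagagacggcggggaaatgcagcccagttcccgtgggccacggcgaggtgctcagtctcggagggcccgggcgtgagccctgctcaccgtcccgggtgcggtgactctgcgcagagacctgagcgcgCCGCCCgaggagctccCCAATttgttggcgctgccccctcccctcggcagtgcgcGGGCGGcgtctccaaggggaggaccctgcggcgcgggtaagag
Col3a1, chr1:45311288-45311587, + strand: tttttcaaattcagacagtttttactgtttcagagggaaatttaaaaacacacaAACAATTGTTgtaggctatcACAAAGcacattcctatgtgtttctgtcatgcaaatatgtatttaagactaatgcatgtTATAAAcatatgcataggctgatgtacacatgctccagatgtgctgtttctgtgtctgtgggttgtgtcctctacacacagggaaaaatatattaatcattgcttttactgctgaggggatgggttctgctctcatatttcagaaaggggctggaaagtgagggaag

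The motifs were ACAAAG and AACAAT, core letters of Sox binding sites, the TATA box TATAAA, the CCAAT box and the GC box GGGCGG, each searched on both strands, where overlapping matches were counted. ACAAAG was in 3 of the 35 collagen windows (8.57%) and in 18.7% of all 32851 windows, and AACAAT in 1 (2.86%) and in 10.7%. GGGCGG was in 22 (62.9%) and in 35.7%, CCAAT in 12 (34.3%) and in 37.4%, and TATAAA in 4 (11.4%) and in 13.6%. The Col9a2 and Col11a2 windows held no Sox-type letters, the Col11a2 window held TATAAA, and the Col15a1 window held none of the motifs. A match is a description of letters, and no binding was measured here.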

How the data were processed

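Total RNA of the cortex of 1 Sox11-null and 1 wild-type embryo was made into biotinylated cRNA and hybridised to an Affymetrix mouse array, per the labels' protocols. The deposited values are linear signal intensity per probe set, made by the authors with Affymetrix Expression Console, per the submitters' processing notes. Neither the algorithm nor a version or filter is given in the sources used here. The mean after trimming 2% at each end was 500.002 on both arrays. The number of arrays limits the precision, and no detection call was used.

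The table holds 45101 probe sets, 64 of them controls, which were left out. Of the rest 34945 name 1 gene, 932 several and 9160 none here. Symbols were updated through a RefSeq table of GRCm38.p6 for 34741 of them. The brightest probe set stood for a gene. Signals were taken to log2, a shift of 0.020 was added to the Sox11-null array so that the median difference of measured genes was 0, and values under the 25th percentile (52.5 in Sox11 null, 52.9 in wild type) were raised to it. A fold with 1 value at the floor is a bound. With 1 array per genotype no test was made.

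The calculation, in Python 3.11.15 with pandas 2.3.3 and statsmodels 0.14.6, was tested on simulated data. Alternatives were no centring, quantile normalization, a loess trend removed, other floors and filters, all probe sets averaged, and no _s_at or _x_at types. The mean over measured probe sets was added after the data were seen. The members and lists were chosen with earlier results of these data known. All collagen genes of the named classes are given, the measured ones outside them, and, of each list, up to 3 (markers: 2) beyond 1.5-fold each way or otherwise the 2 brightest. Genes named in addition after their values were seen include Col20a1, Serpinh1, Sox9, Krt5, Krt14 and Pecam1. They also include list genes whose other measured probe sets are given. The bone, meningeal and fibroblast, endothelial and pericyte markers named as below 0 were added likewise.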

Additional observations from a re-analysis of the deposited data

How the results depend on the processing

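With 1 array per genotype no replicate could be left out, and no spread between embryos stands behind any value. No paired analysis was possible because each genotype has 1 sample and no test was made. A median was taken to have moved when it changed by more than the probe-set SD of 0.39 divided by the square root of the number of genes. The count of collagen genes at least 1.5-fold lower was 0 under the 9 alternatives named first in the methods, and 1 (Col9a3) with the mean over measured probe sets. The count at least 1.5-fold higher was 1 with no filter (Col6a4) and 2 when dim probe sets were averaged in (Col4a6 and Col12a1), and otherwise 0. The median of all collagen genes was 0.065 with quantile normalization. The median of the genes in no named class was -0.063 with the filter at the 75th percentile and -0.042 with the mean over measured probe sets, against 0.083. The cartilage median was below 0 in all 10 alternatives, as was that of the basement membrane genes, which ran from -0.076 to -0.0094. The medians of the fibrillar genes (-0.015 to 0.14), the beaded genes (-0.022 to 0.099) and the FACIT genes (-0.014 to 0.23) crossed 0. Over all measured genes the 401 lower were 264 with the floor at the median, 796 with no filter and 139 with the filter at the 75th percentile, and the 380 higher were 722 and 134 under the last 2. Counts in the partner and marker lists changed in a few settings: with dim probe sets averaged in, 3 hydroxylases, glycosyltransferases or chaperones and 2 receptors were at least 1.5-fold higher and 2 proteinases or cross-linking enzymes at least 1.5-fold lower, and the cartilage markers beyond 1.5-fold lower were 1 under 4 alternatives and 0 with the filter at the 75th percentile, against 2. Dim genes limit these counts, and Col10a1, Col4a4, Col6a4 and Col6a5 were at the floor on at least 1 array.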
